A study of Mus musculus with 4 samples.

Results

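Oxidative phosphorylation is the route by which mitochondria turn the oxidation of nutrients into ATP. Complexes I to IV pass electrons from NADH or succinate to oxygen, complexes I, III and IV pump protons across the inner mitochondrial membrane as they do so, and complex V, the ATP synthase, lets the protons flow back to make ATP. Most subunits are encoded in the nucleus, and complexes I, III, IV and V also hold subunits encoded by mitochondrial DNA, while complex II, which is also an enzyme of the tricarboxylic acid cycle, is encoded by the nucleus alone. The genes described here were chosen by name, as every gene of the expression table whose symbol starts with Nduf, Uqcr, Cox4 to Cox8 or Atp5, together with the 4 succinate dehydrogenase genes *Sdha* to *Sdhd*. This rule took 85 of 18364 genes, of which 42 were assigned to complex I, 4 to complex II, 8 to complex III, 14 to complex IV and 17 to complex V. *Ndufa4* was counted with complex IV, and 7 Ndufaf genes, which encode assembly factors of complex I, were counted with complex I. *Atp5s* and *Atp5sl*, whose RefSeq symbols are *Dmac2l* and *Dmac2*, were counted with complex V by their older names only. The genes encoded by mitochondrial DNA, *Ndufs5* and the tissue-restricted isoforms *Cox4i2*, *Cox6a2*, *Cox7a1*, *Cox8b* and *Ndufa4l2* were not analysed here.

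RNA of large peritoneal macrophages (LPMs), the F4/80+ MHCII- CD102+ resident macrophages of the mouse peritoneal cavity, was sequenced in bulk to ask how loss of retinoid X receptor alpha (RXRα) alters their transcriptome. RXRα is a nuclear receptor that pairs with other nuclear receptors, among them PPARs, to regulate transcription. The groups were 2 WT libraries, from LPMs of *Rxra* fl/fl mice without Cre per the study's methods, and 2 Rxra-KO libraries, from LPMs of LysM-Cre+ *Rxra* fl/fl littermates, in which Cre is expressed from the *Lyz2* locus of myeloid cells. All mice were C57BL/6 and 8 weeks old, the labels name no animal for a library, and adjusted p-values therefore measure the spread between libraries, which may be technical. WT and Rxra-KO are used throughout as the names the labels give. *Rxra* itself did not separate the groups in the labelled direction, with normalised values of 31.04 and 30.92 in WT, against 50.4 and 76.97 in Rxra-KO (20, 28, 33 and 77 reads), and its log2 fold change was 0.99 ± 0.36 (SE; limma adjusted p = 0.183). Reads summed over the gene cannot tell a transcript that lacks the floxed part from an intact one. *Lyz2*, the lysozyme gene that carries Cre, had values of 14263 and 11591 in WT, against 6386 and 6230 in Rxra-KO and was lower in Rxra-KO, with a log2 fold change of -1.03 ± 0.24 (SE; limma adjusted p = 0.00163).

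Depth was 652542 and 947372 reads in WT replicates 1 and 2 and 629030 and 1047021 reads in Rxra-KO replicates 1 and 2, so that each group held 1 shallower and 1 deeper library. A normalised value is a number of reads per 1000000 reads of scaled library size, and a single read was worth between 0.993 and 1.51. The sorted populations differed in their marker genes. Summed values of 11 LPM genes ran from 35645 to 37369 in WT, against from 17915 to 19628 in Rxra-KO, and 9 of the 11 were called lower. Most of each sum came from 1 gene, *Prg4*, with 28429 and 29683 in WT, against 15129 and 16567 in Rxra-KO. Summed values of 9 genes of small peritoneal and monocyte-derived macrophages ran from 112 to 376 in WT, against from 4337 to 5810 in Rxra-KO, and 7 of the 9 were called higher. *Gata6*, the transcription factor that defines LPMs, was measured at 53.7 and 71.1 in WT, against 5.27 and 24.3 in Rxra-KO. Several of these marker genes were named by the study from the same libraries, so their direction is not independent evidence. Their part in the values of the oxidative phosphorylation genes was not tested, and in bulk RNA a change in the number of cells of a type cannot be told apart from a change in RNA per cell.

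The promoters of 3 genes are given first. *Ndufa1* encodes a small subunit in the membrane arm of complex I that is required for its assembly, *Ndufb11* encodes another membrane arm subunit, and *Cox7b* encodes a small subunit of complex IV. These are the 3 X-linked genes among the 85, and they had 3 of the 4 lowest unadjusted p-values. They are shown for that reason, chosen after their values were seen. The 250 bases before the RefSeq start of each gene (build GRCm38.p6) are written 5′ to 3′ on the strand of the gene, at chrX:37191239-37191488 on the minus strand for *Ndufa1*, chrX:106015450-106015699 on the plus strand for *Cox7b* and chrX:20617620-20617869 on the minus strand for *Ndufb11*. The RefSeq start of *Ndufa1* lies 75 bases from the GENCODE start. Capitals mark letters of the motifs described next.
Ndufa1: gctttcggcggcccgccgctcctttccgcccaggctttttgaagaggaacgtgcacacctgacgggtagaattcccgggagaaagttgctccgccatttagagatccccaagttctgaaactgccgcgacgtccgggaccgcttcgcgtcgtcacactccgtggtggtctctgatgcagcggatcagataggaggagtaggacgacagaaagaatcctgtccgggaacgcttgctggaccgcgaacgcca
Cox7b: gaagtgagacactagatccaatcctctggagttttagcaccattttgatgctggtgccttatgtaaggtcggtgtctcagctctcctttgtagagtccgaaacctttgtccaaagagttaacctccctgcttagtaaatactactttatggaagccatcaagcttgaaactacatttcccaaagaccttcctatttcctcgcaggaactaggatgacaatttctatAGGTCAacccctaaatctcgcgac
Ndufb11: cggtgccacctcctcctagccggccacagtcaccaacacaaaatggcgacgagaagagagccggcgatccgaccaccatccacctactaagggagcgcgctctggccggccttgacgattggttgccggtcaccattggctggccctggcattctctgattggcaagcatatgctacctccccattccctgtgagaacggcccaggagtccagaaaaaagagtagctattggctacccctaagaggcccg

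Promoters of nuclear oxidative phosphorylation genes are known for sites of nuclear respiratory factor 1 (NRF1) and of ETS factors such as GABP. A window of 250 bases before the start was found for 73 of the 85 genes, and it was searched on both strands for exact letters. The NRF1-type letters GCATGCGC were in the windows of 9 of 73 members (12.3%) and of 2.56% of 27025 genes. The ETS-type letters CCGGAAG were in those of 13 members (17.8%) and of 7.83% of all genes, and the YY1-type letters AAGATGGC in those of 2 members (2.74%) and of 1.83% of all genes. The letters AGGTCA, which RXR and its partners read, was in the windows of 10 members (13.7%) and of 15.8% of all genes. No member held these letters directly repeated with 0 to 5 bases between the copies, which 0.0851% of all genes held. The member windows had a median GC content of 57.6%, against 52.4% over all windows. Among the printed windows, those of *Ndufa1* and *Ndufb11* held none of these letters and that of *Cox7b* held AGGTCA. The windows of *Uqcrh*, which encodes the hinge protein of complex III, at chr4:116075071-116075320 on the minus strand, and of *Sdhb*, which encodes the iron-sulfur subunit of complex II, at chr4:140961021-140961270 on the plus strand, show the other letters. That of *Uqcrh* held CTTCCGG, the reverse complement of the ETS-type letters, and that of *Sdhb* held the NRF1-type letters and AGGTCA. A match of letters is a description and says nothing of binding.
Uqcrh: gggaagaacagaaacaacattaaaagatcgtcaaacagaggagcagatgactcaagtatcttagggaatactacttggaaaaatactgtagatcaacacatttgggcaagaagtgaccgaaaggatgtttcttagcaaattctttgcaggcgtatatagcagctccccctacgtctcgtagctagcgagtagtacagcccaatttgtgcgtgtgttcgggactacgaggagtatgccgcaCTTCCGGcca
Sdhb: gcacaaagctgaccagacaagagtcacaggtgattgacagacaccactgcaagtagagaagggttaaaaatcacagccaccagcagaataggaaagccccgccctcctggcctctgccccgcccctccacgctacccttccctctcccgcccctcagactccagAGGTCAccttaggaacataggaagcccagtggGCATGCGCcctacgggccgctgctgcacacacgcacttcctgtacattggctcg

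Expression of the 85 genes was very uneven. Compared per length, as the mean value over the 4 libraries per kb of transcript, levels ran from 1.97 for *Ndufaf3* to 3851 for *Cox4i1*, the major subunit 4 isoform of cytochrome c oxidase. *Cox4i1* alone took 26.5% of the reads of all 85 genes and between 81.0% and 84.9% of the complex IV reads of each library. The 5 genes with most reads, *Cox4i1*, *Atp5b*, *Atp5a1*, *Atp5f1* and *Sdhd*, held 52.1% of the members' reads, and the first 10 held 68.7%. Within complex I, level per kb ranged from 2.16 for *Ndufb2* to 621 for *Ndufb7* among the accessory subunits, although most subunits of a complex are needed in equal number. The lengths used for these 2 genes, medians over annotated transcripts, were 2413 and 623 bases, and their mean values were 5.21 and 387. The annotated length thus adds to the range per kb. The 7 complex I assembly factors had the lowest median of the larger parts, 7.78 per kb, against 40.7 for the 7 core subunits, 28.9 for the 28 accessory subunits, 64.5 for complex III and 49.0 for complex IV. In all, 24 of the 85 genes had fewer than 10 reads on average per library, and 18 had at least 100. In 7 genes a group had at most 3 reads in each of its libraries, and in 4 of these, *Atp5s*, *Cox7b2*, *Ndufaf3* and *Sdhc*, both groups did, so no fold is given for those 4.

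**Figure D1:**
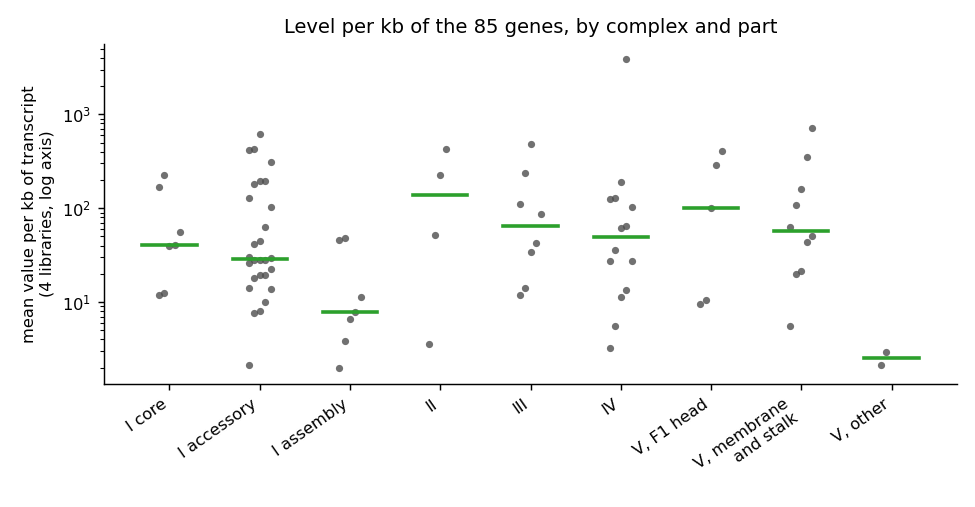
Mean normalised value over the 4 libraries per kb of transcript (log axis) for each of the 85 genes, with 1 point a gene and a green line at the median of each complex or part. Levels spread widely within every part with more than 2 genes, from 1.97 for Ndufaf3 among the complex I assembly factors to 3851 for Cox4i1 in complex IV.

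Sequence shared with other genes limited some of these values. A share of over 40% of the 31-base words of their transcripts also occurs in transcripts of another gene for 8 members: *Atp5l* (85.4%), *Uqcrb* (58.2%), *Atp5o* (56.9%), *Ndufs3* (55.02%), *Cox5a* (47.1%), *Atp5h* (46.9%), *Atp5f1* (45.9%) and *Atp5g2* (40.2%). The counts of these 8 genes are uncertain, since reads may have been divided between genes. For 26 members no such word was shared, and for *Ndufa1* and *Cox7b* the share was 2.06% and 7.11%. For *Ndufb11* it was 29.0%. Across the 85 genes, which are not independent replicates, level per kb and the share of words in other genes had a Spearman's rho of 0.15.

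In the comparison of Rxra-KO with WT, 1 of the 85 genes passed the test, *Ndufa1*, which was lower in Rxra-KO. The rule for a call was an adjusted p under 0.05 together with a log2 fold change of 0.6 or more in either direction, and by it 0.969% of all 18364 genes were called lower and 1.32% higher. The members' share of lower calls, 1.18%, was close to that background, and no member was called higher. Of the 85 genes, 62 had a fold change below 0 and 23 above. Their median log2 fold change was -0.19, against 0.02 over all genes, of which 48.9% were below 0, and it was -0.20 over the 66 members with a mean value of at least 10. Both Rxra-KO libraries lay below both WT libraries for 24 members (28.2%; background 19.3%) and above them for 7 members (8.24%; background 18.8%). The median was -0.18 for complex I, -0.10 for complex II, -0.21 for complex III, -0.31 for complex IV and -0.20 for complex V, and fold changes were below 0 for 27 of 42, 3 of 4, 6 of 8, 13 of 14 and 13 of 17 genes in that order. Without Rxra-KO replicate 1, however, the median of all members was 0.08 and 36 of 85 fold changes were below 0.

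**Figure D2:**
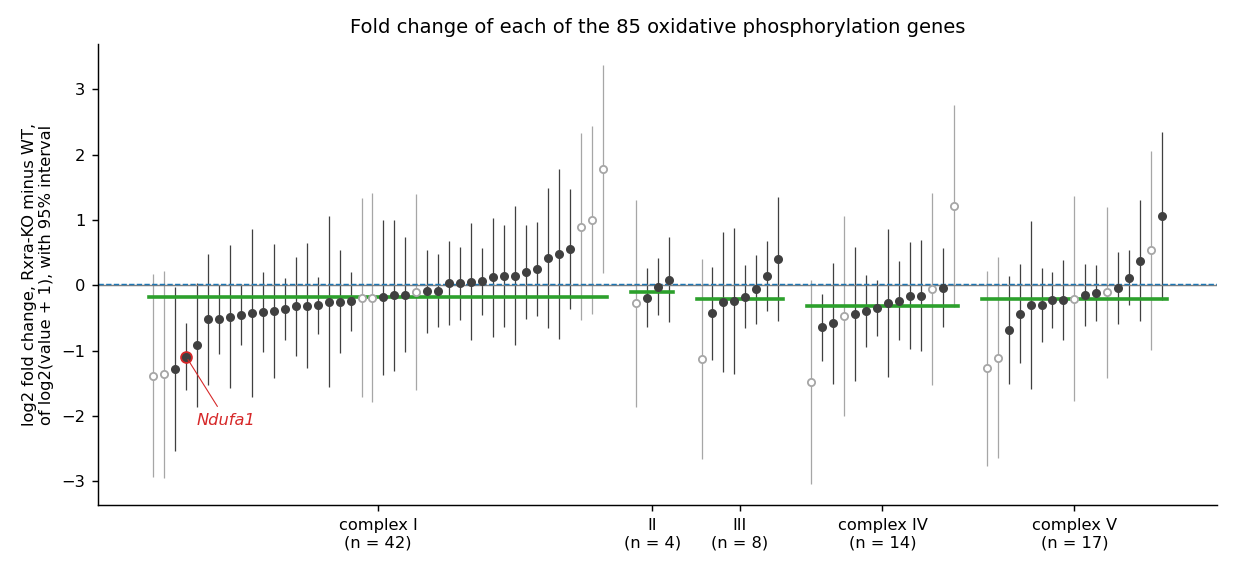
Log2 fold change (Rxra-KO minus WT, on the log2(value + 1) scale) of each of the 85 genes, sorted within each complex, with its 95% interval from limma. Filled points have a mean value of at least 10 and open points a lower one, where few reads leave the fitted value uncertain, green lines are complex medians, the dashed line is the median of all genes at 0.02, and the red point is Ndufa1 at -1.09, the only gene called with all 4 libraries.

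The lower values came mainly from 1 library. Rxra-KO replicate 1 had the lowest value of the 4 libraries for 50 of 85 members (58.8%), where it was the lowest for 26.2% of all genes. WT replicate 1, with a similar depth, was the lowest for 17 members, WT replicate 2 for 8 and Rxra-KO replicate 2 for 10. Relative to the mean of the WT libraries, the median member stood at -0.40 on the log2 scale in Rxra-KO replicate 1 and at 0.08 in Rxra-KO replicate 2, and the WT libraries stood at -0.07 and 0.07. By complex, the median deviation in Rxra-KO replicate 1 was -0.39 for complex I, -0.18 for complex II, -0.52 for complex III, -0.58 for complex IV and -0.33 for complex V. In Rxra-KO replicate 2 it was 0.14, -0.03, 0.12, -0.01 and 0.05 in the same order. The Rxra-KO libraries thus differed from each other by more than the medians of the groups did.

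**Figure D3:**
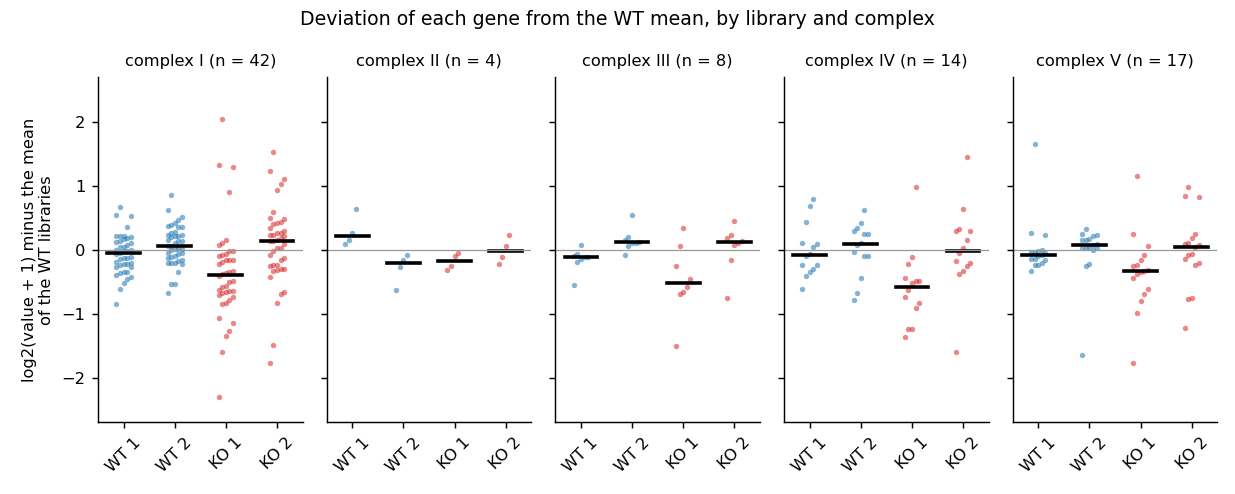
Deviation of each gene from the mean of the WT libraries on the log2(value + 1) scale, by complex and library, with 1 point a gene and a black line at the median. The WT libraries mirror each other because their own mean is the zero line, Rxra-KO replicate 1 (KO 1) sits lowest in complexes I, III, IV and V, and Rxra-KO replicate 2 (KO 2) has medians between -0.03 and 0.14.

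The share of all reads that fell on the 85 genes was also lowest in Rxra-KO replicate 1, while Rxra-KO replicate 2, with its median deviation of 0.08, was here below both WT libraries. The share was 1.11% (95% Wilson interval 1.09 to 1.14) and 1.198% (1.18 to 1.22) in WT, and 0.926% (0.903 to 0.9502) and 1.08% (1.06 to 1.10) in Rxra-KO, that is 1.15% ± 0.0619 over the WT libraries, against 1.002% ± 0.107 over the Rxra-KO libraries (SD, n = 2). The intervals cover counting error of reads taken as independent, and leave out the variation between libraries. Reads were not marked by molecule, so copies of the same molecule could make the intervals too narrow. With 2 libraries against 2, an exact two-sided permutation test cannot give a p below 0.333, and no other test of this share was run. The complex IV share was 0.363% and 0.405% in WT, against 0.277% and 0.334% in Rxra-KO, so that the groups did not overlap. *Cox4i1* alone took between 81.0% and 84.9% of the complex IV reads of each library, so this share mainly follows that gene. It does not describe the other genes of the complex. The complex I share, 0.286% and 0.329% in WT, against 0.234% and 0.281% in Rxra-KO, did not overlap either. The shares of complexes II, III and V did overlap between the groups.

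Complex I takes electrons from NADH. *Ndufa1* had values of 204 and 284 in WT, against 94.1 and 135 in Rxra-KO, from 134, 261, 62 and 135 reads, and the groups did not overlap. Its mean was 244 ± 56.6 for WT, against 114 ± 28.6 for Rxra-KO (SD, n = 2), and the log2 fold change was -1.09 ± 0.26 (SE; 95% interval -1.60 to -0.58; limma adjusted p = 0.0029). The call was lost without WT replicate 2 (log2 fold change -0.85, limma adjusted p = 0.328), without Rxra-KO replicate 1 (-0.83, 0.240) and when limma was run without a mean-variance trend (0.579), and the direction was kept in each. Among the core subunits, which carry the electrons, *Ndufs1*, the largest iron-sulfur subunit, had values of 119 and 94.9 in WT, against 92.6 and 128 in Rxra-KO, with a log2 fold change of 0.03 and a 95% interval of -0.52 to 0.59. Of the 7 core subunits, 4 had a fold change below 0.

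Accessory subunits surround this core. Of 28, 21 had a fold change below 0, with a median of -0.24, and 1 was called. *Ndufa10* had values of 541 and 555 in WT, against 425 and 462 in Rxra-KO, so that the groups did not overlap, and its log2 fold change was -0.31 (95% interval -0.74 to 0.13). *Ndufb7* had values of 357 and 484 in WT, against 314 and 393 in Rxra-KO, which overlapped. *Ndufb11* had the lowest fold change of the complex among genes with a mean value of at least 10, with 17.4 and 17.9 in WT, against 9.79 and 4.47 in Rxra-KO, from 11, 16, 6 and 4 reads. The groups did not overlap, and the log2 fold change of -1.28 ± 0.64 did not pass the test (SE; limma adjusted p = 0.476). *Ndufb11* shares exonic bases with the adjacent gene *Rbm10* (12.9% of its exonic bases), so its reads are uncertain.

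The Ndufaf genes encode factors that help to assemble complex I and are not part of it. They were the only part of complex I with a median above 0, at 0.48, with 5 of 7 fold changes above 0 and none called. Of the 7, 4 had fewer than 10 reads on average per library, among them *Ndufaf3*, for which no fold is given. The median is the fold change of *Ndufaf1*, named for its few reads, 6 and 6 in WT, against 14 and 6 in Rxra-KO. *Ndufaf7*, a methyltransferase that modifies a core subunit, had values of 67.4 and 57.0 in WT, against 48.9 and 81.9 in Rxra-KO. *Ndufaf2* had values of 29.5 and 24.4 in WT, against 26.3 and 22.3 in Rxra-KO. *Ndufaf4* had the highest fold change of the complex among genes with a mean value of at least 10, with 15.9 and 22.2 in WT, against 20.3 and 39.2 in Rxra-KO, which is a log2 fold change of 0.56 (95% interval -0.35 to 1.48). All 3 overlapped between the groups. *Ndufaf6*, singled out after its values were seen, had an unadjusted p of 0.028 and rested on few reads, 1 and 0 in WT, against 5 and 5 in Rxra-KO.

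**Figure D4:**
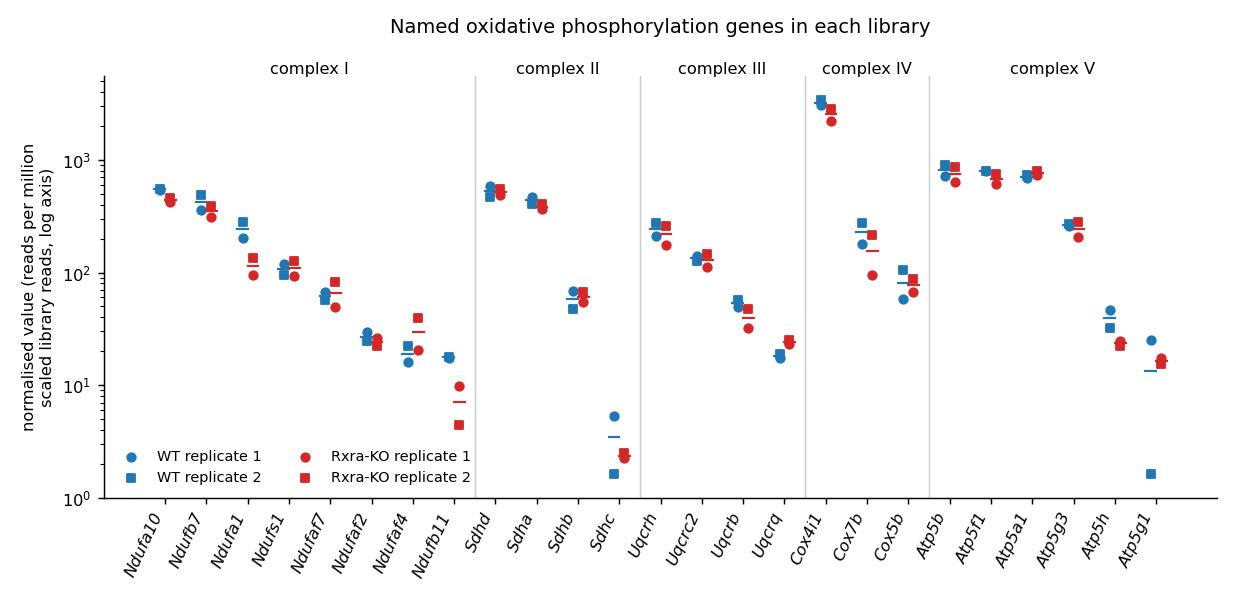
Normalised value (log axis) in each of the 4 libraries for 25 oxidative phosphorylation genes that the rule for named genes took, by complex, with a short line at the mean of each group. Ndufa1 lies at 204 and 284 in WT and at 94.1 and 135 in Rxra-KO, while for 15 of the 25 genes the values of the groups overlap. Both Rxra-KO libraries lie below both WT libraries for 8 of the 25 and above them for 2. Over all genes these shares are 19.3% and 18.8%, and some of the 25 were taken for their fold change.

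Complex II oxidises succinate and feeds ubiquinone. *Sdha*, the flavoprotein that holds the active site, had values of 464 and 410 in WT, against 365 and 402 in Rxra-KO, which is a log2 fold change of -0.19 (95% interval -0.63 to 0.26), with groups that did not overlap. *Sdhb* had values of 68.9 and 47.2 in WT, against 54.96 and 67.04 in Rxra-KO, which is a log2 fold change of 0.09 (95% interval -0.56 to 0.74). *Sdhd*, a membrane anchor subunit, had values of 587 and 472 in WT, against 492 and 551 in Rxra-KO, which is a log2 fold change of -0.02 (95% interval -0.45 to 0.42). For both the Rxra-KO values lay inside the WT range. *Sdhc*, the other anchor, had 3 and 1 reads in WT, against 1 and 2 in Rxra-KO, which is too few for a comparison. Complex II was the complex whose WT libraries differed most, with medians of 0.21 in WT replicate 1 and -0.21 in WT replicate 2, and its median fold change was 0.25 without WT replicate 1.

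Complex III passes electrons from ubiquinol to cytochrome c. *Uqcrh* had values of 210 and 276 in WT, against 175 and 260 in Rxra-KO, and *Uqcrc2*, a core protein, had 142 and 126 in WT, against 112 and 146 in Rxra-KO. Both overlapped between groups, with log2 fold changes of -0.17 (95% interval -0.66 to 0.31) and -0.06 (-0.59 to 0.47). *Uqcrb*, which helps to form the ubiquinone site, had the lowest fold change of the complex among genes with a mean value of at least 10. It had values of 49.2 and 57.0 in WT, against 32.4 and 47.2 in Rxra-KO, which is a log2 fold change of -0.43 ± 0.36 (SE; limma adjusted p = 0.801), and it is 1 of the 8 genes with much shared sequence. *Uqcrq* had the highest, with 17.4 and 19.0 in WT, against 23.3 and 25.3 in Rxra-KO, which is a log2 fold change of 0.40 ± 0.48 (SE; limma adjusted p = 0.896). The groups of both genes did not overlap, and neither passed the test.

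Complex IV reduces oxygen to water. *Cox4i1* had values of 3044 and 3370 in WT, against 2222 and 2840 in Rxra-KO, from 2010, 3106, 1475 and 2859 reads, and the groups did not overlap. Its mean was 3207 ± 230.5 for WT, against 2531 ± 437 for Rxra-KO (SD, n = 2), and the log2 fold change was -0.35 ± 0.22 (SE; 95% interval -0.78 to 0.08; limma adjusted p = 0.646). *Cox7b* had values of 181 and 275 in WT, against 94.1 and 216 in Rxra-KO, from 119, 253, 62 and 217 reads. Rxra-KO replicate 1 was the low library, Rxra-KO replicate 2 lay between the WT values, and the log2 fold change of -0.64 ± 0.26 did not pass the test (SE; limma adjusted p = 0.276). It was -1.24 with a limma adjusted p of 0.00633 without Rxra-KO replicate 2 and -0.05 without Rxra-KO replicate 1. *Cox5b*, with the highest fold change among genes of the complex with a mean value of at least 10, had 58.3 and 105 in WT, against 67.0 and 86.9 in Rxra-KO, which is a log2 fold change of -0.03 (95% interval -0.64 to 0.57). The lowest and the highest fitted values of the complex belonged to *Cox6b2*, a testis isoform, with 4 and 1 reads in WT and 0 in both Rxra-KO libraries, and *Cox7b2*, with 0 in both WT libraries and 1 and 3 reads in Rxra-KO. No fold is given for these 2, which were named for their few reads.

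Complex V consists of the F1 head, which makes ATP, and of a membrane part and stalk, through which protons pass. *Atp5b*, the catalytic beta subunit of the head, had values of 717 and 897 in WT, against 641 and 860 in Rxra-KO, and the Rxra-KO values lay partly inside the WT range. Its mean was 807 ± 127 for WT, against 750.1 ± 155 for Rxra-KO (SD, n = 2), and the log2 fold change was -0.11 (95% interval -0.54 to 0.32). *Atp5a1*, the alpha subunit, had values of 687 and 731 in WT, against 739 and 804 in Rxra-KO, so that both Rxra-KO libraries lay above both WT libraries, with a log2 fold change of 0.12 (95% interval -0.31 to 0.55). In the membrane part and stalk, *Atp5f1*, which encodes the b subunit of the stalk, had values of 796 and 799 in WT, against 615 and 751 in Rxra-KO, which is a log2 fold change of -0.23 ± 0.22 (SE; limma adjusted p = 0.835). *Atp5g3*, 1 of the 3 genes for the c subunit of the proton-carrying ring, had values of 261 and 268 in WT, against 207 and 279 in Rxra-KO. *Atp5h*, the d subunit of the stalk, had the lowest fold change of the complex among genes with a mean value of at least 10. It had values of 46.2 and 32.002 in WT, against 24.8 and 22.3 in Rxra-KO, which is a log2 fold change of -0.68 ± 0.42 (SE; limma adjusted p = 0.631), and the groups did not overlap. *Atp5g1*, another c subunit gene, had 24.98 and 1.63 in WT, against 17.3 and 15.4 in Rxra-KO (16, 1, 11 and 15 reads), and its log2 fold change of 1.07 rested on WT replicate 2. Without WT replicate 1 it was 2.72 with a limma adjusted p of 0.0409, and without WT replicate 2 it was -0.58.

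Precision followed the number of reads. The 95% interval of the log2 fold change had a median width of 0.95 for the 18 genes with at least 100 reads on average per library and of 3.06 for the 24 genes with fewer than 10. For 31 of the 85 genes it lay wholly within a 2-fold change in either direction, and for 4 within a 1.5-fold change. Of the 18 well-covered genes, 15 had a fold change below 0, with a median of -0.21.

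**Figure D5:**
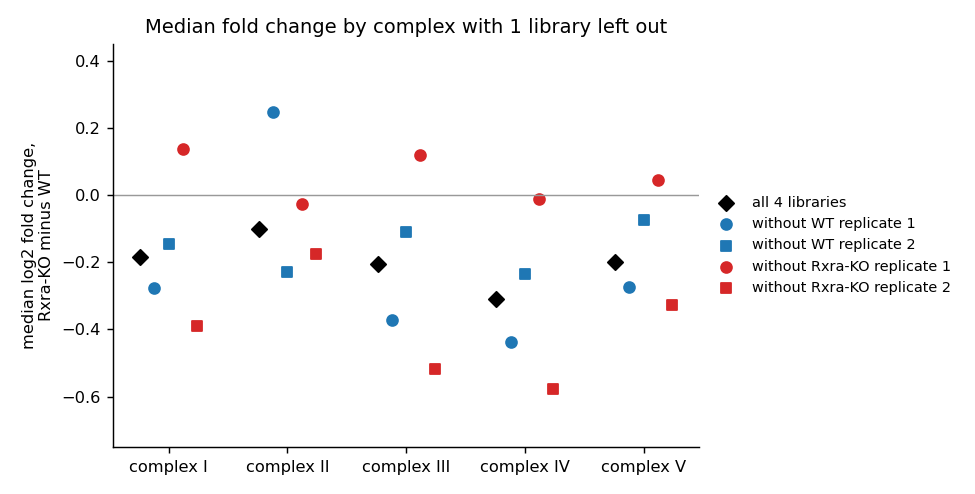
Median log2 fold change (Rxra-KO minus WT) of the genes of each complex with all 4 libraries (diamonds) and with each library left out. Without Rxra-KO replicate 1 the medians lie at 0.14, -0.03, 0.12, -0.01 and 0.05 for complexes I to V, and without Rxra-KO replicate 2 they lie at -0.39, -0.18, -0.52, -0.58 and -0.33.

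Genes that feed, build or regulate the complexes were described from 5 lists, of which 90 genes were in the table and none was called, with 46 fold changes below 0 and 44 above and a median log2 fold change of -0.03. Among 7 electron carriers and feeders, 4 fold changes were below 0. *Cyc1*, cytochrome c1, which is a subunit of complex III that the name rule does not take, had values of 126 and 124 in WT, against 58.0 and 103 in Rxra-KO, which is a log2 fold change of -0.69 ± 0.29 (SE; limma adjusted p = 0.301), and was named after its values were seen. Among 40 assembly factors outside the 85 genes, 23 were below 0, with a median of -0.12. Among 17 genes of the tricarboxylic acid cycle and pyruvate dehydrogenase, 8 were below 0, with a median of 0.03. Of 16 regulators of mitochondrial genes and mitochondrial DNA, 6 were below 0, with a median of 0.08. These include *Nrf1*, at 82.5 and 51.5 in WT, against 65.5 and 69.0 in Rxra-KO, and *Tfam*, which packages and transcribes mitochondrial DNA, at 53.7 and 76.5 in WT, against 65.5 and 83.9 in Rxra-KO. Among 10 carriers, pores and scaffold proteins, 5 were below 0. The phosphate carrier gene *Slc25a3*, which supplies the ATP synthase, had values of 1931 and 1878 in WT, against 2301 and 2175 in Rxra-KO.

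Ribosomal protein genes, which like most of the 85 have short transcripts, are set beside them here. Of 73 cytosolic ribosomal protein genes, 66 had a fold change below 0, 16 were called lower and 0 higher, their median log2 fold change was -0.65, and their medians were -0.84 and -0.46 in Rxra-KO replicates 1 and 2 relative to the WT mean. Of 75 mitochondrial ribosomal protein genes, 38 were below 0, 1 was called lower, and the median was -0.02, with -0.15 and 0.19 in the Rxra-KO libraries. Rxra-KO replicate 1 was thus the lower Rxra-KO library for all 3 groups of genes. The differences between the groups of genes were not tested. By transcript length, the median log2 fold change of genes with a mean value of at least 10 was -0.02 in the shortest of 3 classes of equal number, which held 61 of the 66 members above that value, and 0.05 and 0.04 in the middle and longest classes.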

How the data were processed

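RNA of double-sorted LPMs was extracted with the RNeasy kit, and libraries were made with the SMART-Seq v4 and Low Input kits, which mark neither strand nor molecule. Per the study's methods and the submitters' processing notes, reads were pseudoaligned with kallisto 0.43.0, summarised to genes, filtered on low counts and normalised with limma. The build named is GRCh38, a human build, although the deposited symbols are those of mouse genes. The study left out RNA-seq samples that did not cluster with their group. The deposited values are a normalised read signal. Each held (reads + 0.5) over the scaled size of its library. Whole reads came back for 100% of values (relative tolerance 0.001), and rescaling these reads by TMM gave the deposited signal. Library columns carry other numbers than the titles, and replicates are numbered here as in the titles.

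Values were tested as log2(value + 1) by limma 3.58.1 in R 4.3.3, using its empirical Bayes moderation along a mean-variance trend, in a two-sided test of all 4 libraries without covariates, and p-values were adjusted over 18364 genes (Benjamini-Hochberg). Each p leans on the spread shared across genes (227 prior against 2 residual degrees of freedom). Such fold changes understate the change of low genes. Requiring a value of 1 or more in 2 or more libraries removed no gene. Alternatives were other pseudocounts, filters, scalings and thresholds, limma without trend, voom, edgeR 4.0.16 and DESeq2 1.42.0 on the recovered reads, leaving out each library, a replicate block and removal of a trend with transcript length. Fits were tested on simulated data. Lengths (median over protein-coding transcripts), shared 31-base words and exon overlaps are from GENCODE M21, and promoters are from RefSeq, without matches for 12 genes, among them *Atp5a1*, *Cox4i1*, *Cox6c*, *Ndufa2*, *Ndufaf6*, *Ndufb9*, *Ndufs1*, *Sdhc*, *Uqcrb*, *Uqcrc2* and *Uqcrq*. Of the 85 genes, 82 matched RefSeq by symbol and 3 by an older symbol.

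Genes named were those with an adjusted p under 0.05, the 2 with the highest mean value in each part of a complex, the highest and lowest fold change in each complex among genes with a mean value of at least 10, *Sdha* to *Sdhd*, tissue isoforms, *Rxra*, *Lyz2* and called genes of the pathway lists. A gene that this rule took is not reported here. Others are said to have been chosen after their values were seen, apart from marker genes, printed promoters, genes named for their level or shared sequence, *Nrf1*, *Tfam* and *Slc25a3*, which were chosen likewise. The members and lists were chosen with earlier results of these data known. Marker lists for B cells (4 genes, summed value 10.6 to 17.4 in WT and 14.9 to 22.6 in Rxra-KO), T cells (5 genes, 91.7 to 113 and 74.0 to 95.6), mast cells (5 genes, 23.5 to 27.7 and 14.4 to 30.9), mesothelial cells (5 genes, 64.3 to 93.8 and 58.0 to 67.0), neutrophils (2 genes, 4.54 to 8.68 and 7.95 to 16.6), dendritic cells (6 genes, 56.0 to 64.0 and 105 to 132) and erythroid cells (2 genes, 5.42 to 9.08 and 3.01 to 12.9) were read in the same way. Of the 6 dendritic cell genes, 5 had a fold change above 0 and 1 below. Only *Cd209a* was called, with 22.0 and 14.6 in WT, against 65.5 and 80.0 in Rxra-KO, and it makes most of the difference in that sum.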

Additional observations from a re-analysis of the deposited data

How the results depend on the processing

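Under the alternatives that kept all 4 libraries and the mean-variance trend, with voom, edgeR and DESeq2 included, *Ndufa1* remained the 1 member called, and the median of the 85 genes stayed below 0. The count of all genes called was 421, fell to 246 with DESeq2, where 5547 genes had an adjusted p, and was 0 with limma without trend (0 members called; 1579 genes and 8 members at an unadjusted p under 0.05). With 1 library left out, where the lone library of a group is assumed to vary like the others, 236 to 377 genes and 0 to 2 members were called. The medians then ranged from -0.40 to 0.076 for all members, -0.39 to 0.14 for complex I and -0.23 to 0.25 for complex II. They ranged from -0.52 to 0.12 for complex III, -0.58 to -0.012 for complex IV and -0.33 to 0.046 for complex V. Named genes whose direction turned had log2 fold changes of -0.32 to 0.10 (*Atp5b*), -0.58 to 2.72 (*Atp5g1*), -0.35 to 0.073 (*Atp5g3*), -0.45 to 0.38 (*Cox5b*), -0.33 to 0.40 (*Ndufaf7*), -0.20 to 0.26 (*Ndufs1*), -0.18 to 0.36 (*Sdhb*), -0.17 to 0.14 (*Sdhd*), -0.25 to 0.13 (*Uqcrc2*) and -0.45 to 0.11 (*Uqcrh*). With voom, *Sdhd* was at 0.0033. Without WT replicate 1 and without WT replicate 2 *Lyz2* lost its call (limma adjusted p = 0.272 and 0.0583), as it did with limma without trend (0.558). The cause was not tested beyond the smaller number of libraries.

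Over 10049 genes, same-numbered deviations had an r of 0.063, which cannot tell whether replicate numbers pair the libraries for the members alone. The median member was lower in replicate 1 than in replicate 2 in both groups. It stood at -0.07 and 0.07 in WT and at -0.40 and 0.08 in Rxra-KO, relative to the WT mean. In complex II the WT libraries had the other order. With the replicate block, 540 genes and 1 member, *Ndufa1*, were called, and the member median was -0.19. With 2 libraries a group and few reads for many members, small differences could not be resolved.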

Other observations

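The only X-linked genes among the 85, *Ndufa1*, *Cox7b* and *Ndufb11*, ranked 1, 2 and 4 of the 85 by unadjusted p (3.7e-05, 0.0145 and 0.0453), all lower in Rxra-KO, and this was noticed after their values were seen. Of 552 genes on chromosome X, 263 had a fold change below 0, 5 were called lower and 7 higher, and the median log2 fold change was 0.05. The 82 members on other chromosomes had a median of -0.19, with none called (1 at an unadjusted p under 0.05 with limma). Reads of *Xist*, which is transcribed from the inactive X chromosome of females, numbered 13 and 21 in WT, against 11 and 9 in Rxra-KO, and those of the Y-linked *Eif2s3y* numbered 35 and 47 in WT, against 56 and 66 in Rxra-KO. Transcripts of both kinds were thus in every library. As normalised values, *Xist* was at 20.4 and 23.3 in WT, against 17.3 and 9.44 in Rxra-KO. *Eif2s3y* was at 53.7 and 51.5 in WT, against 85.1 and 66.0 in Rxra-KO. The list for sex held 5 genes, these and *Ddx3y*, *Kdm5d* and *Uty*, and none was called. Both Rxra-KO libraries lay below both WT libraries for 1 of the 5 and above them for 3. Over all genes these shares were 19.3% and 18.8%. The part of the sex chromosomes in the values of the X-linked members was not tested.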
